A study of Mus musculus with 3 samples.

Results

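Regions of Flag-tagged Bcl11a CUT&Tag signal whose summit lay within 1 kb of an outer end of a noncoding gene, and over 1 kb from every end of a protein-coding gene, are described here. Overlaps of at least 1 bp joined the peaks of the libraries into regions (19 autosomes and both sex chromosomes), and a region was kept where all 3 libraries had a peak. The summit of a region was the mean over libraries of the summit of each library's widest peak. Of 22987 such reproducible regions, 1418 (6.17%) were at noncoding gene ends only, 8513 lay within 1 kb of a coding end and 13056 lay at neither. Beyond the calling of peaks, the rule used positions and gene annotation, not fold enrichment or height. Width entered through the choice of each library's widest peak, in the same way for every class.

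The material was a single group of 3 CUT&Tag libraries, numbered as replicates, from sorted bone marrow LSK cells (lineage-negative, Sca-1-positive, Kit-positive stem and early progenitor cells). Per the series design, the mice carried a knocked-in triple Flag epitope on the N-terminal side of Bcl11a, while the genotype label of all 3 libraries reads wildtype. No label gives an age, a sex or separate animals, so spreads and p-values over libraries measure only how these libraries differ. A library from untagged cells, without antibody or of input DNA was not analysed here, so tagged Bcl11a and other open chromatin cannot be told apart.

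Bcl11a is a zinc finger repressor of transcription, known for silencing fetal globin genes in red cell precursors and for its need in B lymphoid development and stem cells. Noncoding genes are of several kinds. RNA polymerase II makes the long noncoding RNAs (lncRNAs), most microRNA precursors and most spliceosomal snRNAs, while RNA polymerase III makes tRNAs, 5S rRNA, U6 snRNA, 7SL and 7SK RNA from short genes. Antigen receptor V segments, which RefSeq lists apart from protein-coding genes, are joined to other segments by recombination in lymphocytes, and pseudogenes are copies that have lost their coding function.

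The sequences of some of these genes show what the regions lay over. Starts were read from RefSeq promoter sequences of GRCm38.p6, the assembly behind mm10, each running from 250 bases before to 50 bases after a start on the gene's strand. Shown are 5 of the 8 strongest lncRNA regions that covered a start listed in that table. These 5 had no listed coding start within 1 kb of the summit and a summit within 300 bp of the listed start. Jpx, which activates the X inactivation gene Xist, and Mir22hg, the host of miR-22, were added after their values were seen, as list genes with covered starts. Capitals mark matches, on either strand, to the 11 motifs spelled out with the promoter results.
Gm51802, minus strand, chr10:60162342-60162641: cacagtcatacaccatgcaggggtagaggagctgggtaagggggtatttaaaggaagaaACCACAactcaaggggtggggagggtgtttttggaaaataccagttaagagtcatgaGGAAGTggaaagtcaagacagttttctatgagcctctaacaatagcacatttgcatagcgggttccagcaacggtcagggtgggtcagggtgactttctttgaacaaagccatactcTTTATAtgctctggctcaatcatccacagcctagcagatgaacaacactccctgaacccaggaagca
Gm27011, minus strand, chr8:121950596-121950895: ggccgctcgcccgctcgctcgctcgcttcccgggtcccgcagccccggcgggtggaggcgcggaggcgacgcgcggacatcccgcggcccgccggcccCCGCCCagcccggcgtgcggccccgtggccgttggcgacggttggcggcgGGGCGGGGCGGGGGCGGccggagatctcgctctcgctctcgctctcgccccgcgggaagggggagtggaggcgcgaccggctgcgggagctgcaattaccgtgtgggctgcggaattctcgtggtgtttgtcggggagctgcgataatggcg
1700113A16Rik, minus strand, chr3:88177736-88178035: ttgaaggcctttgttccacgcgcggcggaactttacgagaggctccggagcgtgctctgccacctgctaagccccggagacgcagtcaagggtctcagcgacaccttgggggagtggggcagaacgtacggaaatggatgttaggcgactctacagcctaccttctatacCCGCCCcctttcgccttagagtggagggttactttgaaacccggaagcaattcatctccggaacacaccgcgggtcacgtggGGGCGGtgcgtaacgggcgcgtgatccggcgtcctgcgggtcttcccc
Gm33560, plus strand, chr7:141122981-141123280: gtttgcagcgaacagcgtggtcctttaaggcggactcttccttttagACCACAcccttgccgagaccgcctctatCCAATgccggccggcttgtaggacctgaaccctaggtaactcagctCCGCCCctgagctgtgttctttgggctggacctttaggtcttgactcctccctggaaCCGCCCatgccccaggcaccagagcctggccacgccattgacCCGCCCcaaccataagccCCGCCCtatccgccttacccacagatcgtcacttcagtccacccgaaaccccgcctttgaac
Gm41603, minus strand, chr17:55932148-55932447: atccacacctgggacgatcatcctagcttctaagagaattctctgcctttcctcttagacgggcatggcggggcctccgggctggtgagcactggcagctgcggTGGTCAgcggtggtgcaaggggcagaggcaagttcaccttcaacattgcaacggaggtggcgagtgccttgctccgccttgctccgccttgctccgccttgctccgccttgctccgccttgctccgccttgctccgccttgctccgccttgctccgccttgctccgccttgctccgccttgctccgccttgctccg
Jpx, plus strand, chrX:103493308-103493607: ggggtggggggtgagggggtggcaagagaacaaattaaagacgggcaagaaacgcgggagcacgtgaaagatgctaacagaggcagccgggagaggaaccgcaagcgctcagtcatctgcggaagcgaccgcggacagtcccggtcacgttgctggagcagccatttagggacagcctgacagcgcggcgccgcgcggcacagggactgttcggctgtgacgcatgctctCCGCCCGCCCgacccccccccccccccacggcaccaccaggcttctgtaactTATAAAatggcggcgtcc
Mir22hg, plus strand, chr11:75461289-75461588: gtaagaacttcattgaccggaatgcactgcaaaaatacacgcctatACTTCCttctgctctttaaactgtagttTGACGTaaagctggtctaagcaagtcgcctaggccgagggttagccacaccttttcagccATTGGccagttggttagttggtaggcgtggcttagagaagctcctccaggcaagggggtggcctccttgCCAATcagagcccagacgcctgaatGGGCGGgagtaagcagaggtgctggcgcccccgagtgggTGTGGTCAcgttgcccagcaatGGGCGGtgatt
The first of these holds 2 CpG dinucleotides, and the next 4 hold 50, 28, 16 and 21. Jpx holds 27 and Mir22hg holds 12. A match to TGACCA, the reported BCL11A motif, begins 146 bases before the start in Gm41603 and 19 bases after it in Mir22hg, and the other 5 have none in this window.

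MicroRNAs act by pairing of their seed, bases 2 to 8, with target mRNAs. A microRNA gene end lay within 1 kb of the summit of 48 of the regions, which together reached 53 microRNA genes, and RefSeq gave mature sequences for 49 of these genes. The arms below belong to the strongest of them, Mir6236, and to microRNAs with known roles, and capitals mark the seed.
mmu-miR-6236, plus strand, chr9:110281353-110281371: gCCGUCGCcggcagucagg
mmu-miR-210-3p, minus strand, chr7:141221407-141221428: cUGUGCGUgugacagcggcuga
mmu-let-7i-5p, minus strand, chr10:122985698-122985719: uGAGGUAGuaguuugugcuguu
mmu-miR-132-3p, plus strand, chr11:75173723-75173744: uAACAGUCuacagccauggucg
mmu-miR-212-3p, plus strand, chr11:75173443-75173464: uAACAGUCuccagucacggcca
mmu-miR-33-5p, plus strand, chr15:82198127-82198147: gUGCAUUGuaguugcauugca
mmu-miR-23a-3p, plus strand, chr8:84208563-84208583: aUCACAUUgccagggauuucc
mmu-miR-27a-3p, plus strand, chr8:84208727-84208747: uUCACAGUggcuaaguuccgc
mmu-miR-24-3p, plus strand, chr8:84208875-84208896: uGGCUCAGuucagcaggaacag
The 85 mature sequences of these genes held 84 different seeds, and the seed shared by different genes was that of miR-132-3p and miR-212-3p. Those 2 microRNAs come from neighbouring genes that lay at the same region.

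The libraries held 38739, 36466 and 43469 peaks at a background of 1.07, 1.41 and 1.95 fragments per base, so library 3 had the most coverage. As a check of the label, reproducible regions lay at or in 7 of 9 genes that mark LSK cells, all but Ly6a and Hlf, against 1 of 4 T cell, 2 of 4 B cell, 0 of 4 granulocyte, 1 of 4 erythroid and 1 of 4 stromal marker genes. Of all 21887 protein-coding genes 11745 (53.7%) had a region at or in them by the same rule, so these short lists check the label only loosely. Regions at noncoding ends only were 5.36% of the 27998 regions of a single library and 6.33% of the 9831 regions of 2 libraries, close to their 6.17% of the reproducible ones. Of the 3540 regions of any library at noncoding ends only, 40.1% were found in all 3 libraries, against 65.5% of regions at coding ends and 29.5% of those at neither.

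The regions at noncoding ends were weaker and narrower than those at coding ends in each library, and close to the regions at neither. Strength is given as fold enrichment, the authors' own value for a peak, which sets the summit pileup (overlapping fragments) plus 1 against the local background plus 1. The median fold enrichment of the noncoding-end regions was 6.12, 6.08 and 5.82 in libraries 1, 2 and 3, against 7.20, 7.48 and 6.96 at coding ends and 5.90, 5.82 and 5.53 at neither. All 3 libraries gave this order of the classes. The mean difference of log2 medians was -0.26 ± 0.03 from the coding ends and 0.06 ± 0.01 from the regions at neither (SD, n = 3 libraries). Each of these differences had p = 0.25 by an exact sign-flip permutation test over libraries (two-sided; 0.25 after Benjamini-Hochberg adjustment over 8 differences), the smallest p that 3 libraries allow.

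The widest peak of a noncoding-end region had a median width of 443.5, 571 and 623 bp in libraries 1, 2 and 3. Coding-end regions had 561, 722 and 743 bp, and regions at neither had 430, 523 and 585 bp. Noncoding-end regions were thus narrower than coding-end regions in all 3 libraries, by a mean difference of -129.5 ± 18.7 bp, and differed from the regions at neither by 33.2 ± 17.8 bp (SD, n = 3; exact sign-flip permutation p = 0.25 for both). Height followed the same order, with a median summit pileup of 20, 26 and 31 fragments at noncoding ends, against 23, 31 and 37 at coding ends and 18, 23 and 28 at neither.

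**Figure D1:**
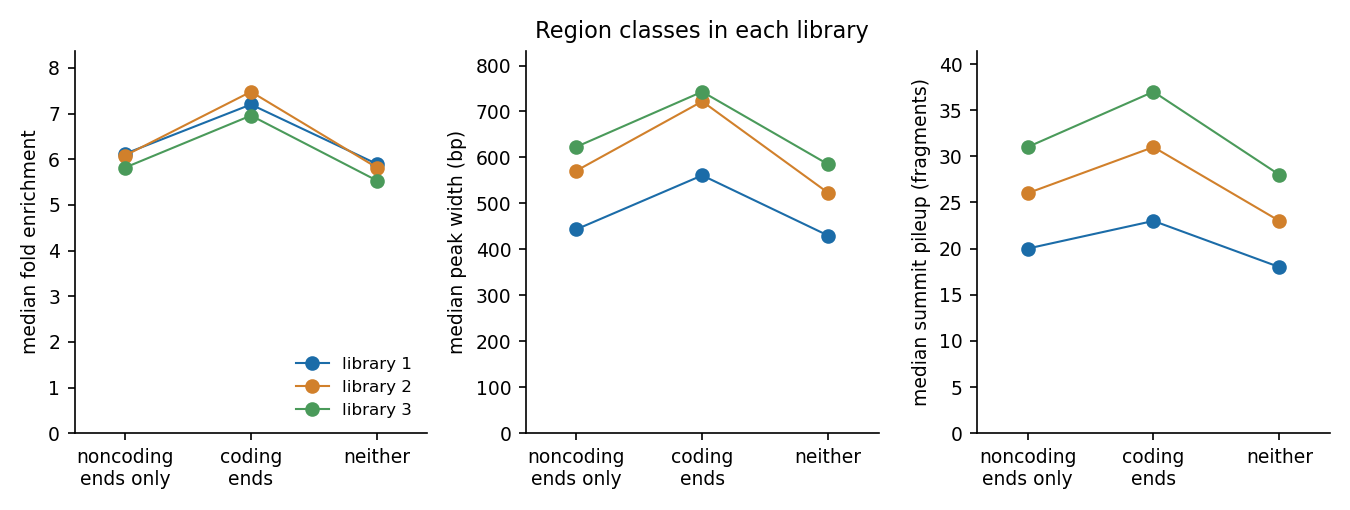
Median fold enrichment, width of the widest peak (bp) and summit pileup (fragments) of the regions at noncoding ends only, at coding ends and at neither, in each of the 3 libraries (colours). In every library the noncoding-end regions lie below the coding-end regions in all 3 measures, for example 6.12 against 7.20 fold in library 1.

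At the level of genes, 1349 of 25343 noncoding genes with both ends over 1 kb from coding ends held a region at noncoding ends only (5.32%). Of all 21887 protein-coding genes, not filtered for distance from other genes, 9374 had a region's summit within 1 kb of an end (42.8%). With noncoding genes close to coding ends included, 1489 of 28056 held a region at noncoding ends only (5.31%). By the rule, that share leaves out regions within 1 kb of a coding end. A further 915 lncRNA genes had an end only at such regions. Among genes away from coding ends, the share differed widely among kinds of gene. It was 35.5% for rRNA genes (22 of 62), 24.2% for tRNA genes (87 of 359), 9.39% for V segments (37 of 394), 8.71% for lncRNA genes (931 of 10686) and 7.21% for transcribed pseudogenes (31 of 430). It was 4.64% for microRNA genes (50 of 1078), 4.12% for snRNA genes (40 of 971), 2.31% for snoRNA genes (29 of 1258) and 1.07% for other pseudogenes (103 of 9669). Among small classes it was 10.5% for misc_RNA genes (8 of 76), 7.14% for D segments (1 of 14) and 1.31% for V segment pseudogenes (2 of 153). Neighbouring genes can share a region, so these genes are not independent of each other, and lncRNA genes are far longer (median 8429 bases) than tRNA genes (72 bases), whose ends share 1 window.

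By the nearest noncoding gene, 1062 of the 1418 regions (74.9%) were at lncRNA genes, 98 at pseudogenes, 50 at tRNA genes, 42 at microRNA genes, 37 at snRNA genes, 37 at V segments, 36 at transcribed pseudogenes, 22 at rRNA genes and 17 at snoRNA genes. The rest were 9 at genes of the class misc_RNA, 3 at guide RNA genes, 2 at V segment pseudogenes and 1 each at a D segment, a Y RNA and a small cytoplasmic RNA gene. A total of 114 regions (8.04%) had more than 1 noncoding gene within 1 kb, and 58 genes were nearest to more than 1 region. The median fold enrichment by class lay between 5.04 and 7.25 in library 1 for the classes with 9 or more regions, except the rRNA genes at 2.48.

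**Figure D2:**
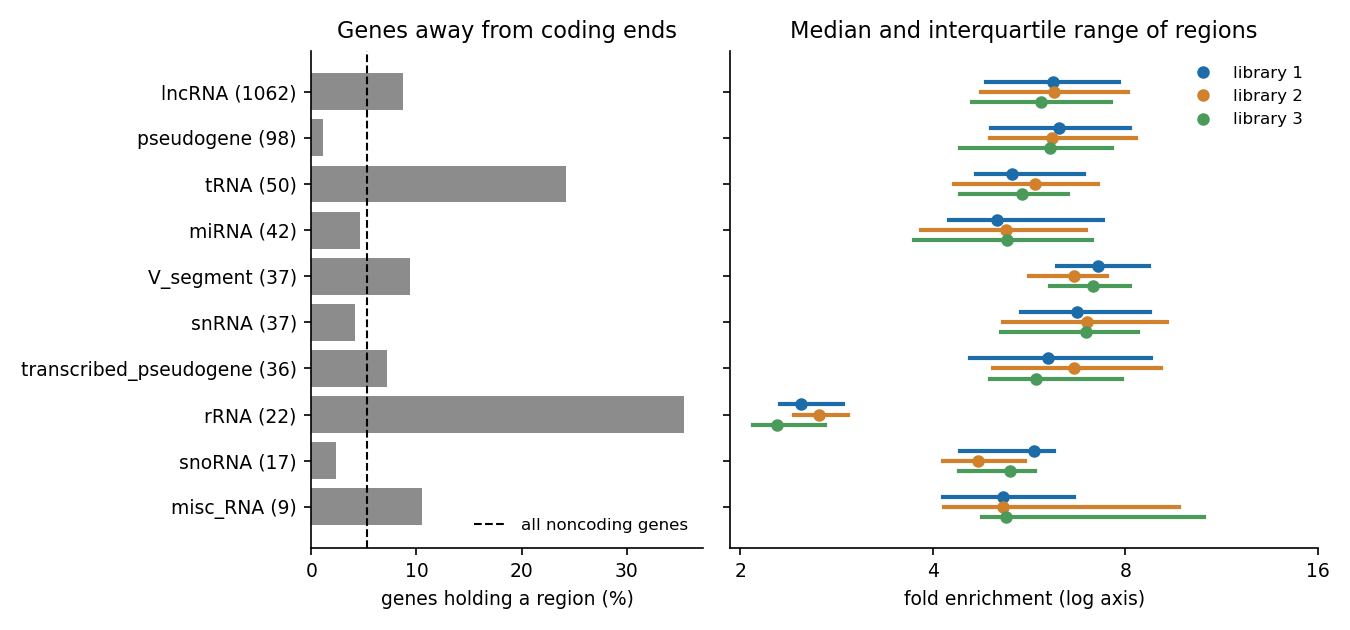
Left, percent of genes with both ends over 1 kb from coding ends that held a region, by class of gene, with the dashed line at 5.32% for all noncoding genes and the number of regions in parentheses. Right, median (points) and interquartile range (bars) of the fold enrichment of the regions in each library, on a log axis, where the rRNA genes lie lowest in all 3 libraries at 2.48, 2.65 and 2.28.

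Across single regions the mean fold enrichment over the 3 libraries ran between 1.71 and 41.5 with a median of 6.06. It was at least 10 in 127 regions and under 3 in 33, of which 17 were at rRNA genes. Log2 fold enrichment of the 1418 regions correlated between pairs of libraries with Pearson's r of 0.82 to 0.84 and Spearman's rho of 0.78 to 0.81, as a description across regions called in all 3. The 3 summits lay within 100 bp of each other in 610 regions (43.0%).

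Regions at lncRNA genes were the largest class, and most lay at the start of the gene. For the 831 lncRNA regions whose gene had a strand in the RefSeq promoter table, 643 (77.4%, 95% Wilson interval 74.4% to 80.1%, counting error only) were nearer to the start than to the finish. With each library's own summits the share was 77.1%, 77.5% and 77.1%. Among genes over 5 kb long it was 394 of 500 (78.8%), where the ends lie far apart. Coding-end regions with a strand were at the start of the nearest coding gene in 6474 of 6877 cases (94.1%, 93.6% to 94.7%). The rule leaves lncRNA starts near coding ends out of the lncRNA share, and the regions come from the same 3 libraries. The difference between the shares was not tested.

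The share at the start was lower among lncRNA regions of fewer libraries. It was 62.5% (461 of 738) for regions of a single library and 68.4% (216 of 316) for regions of 2 libraries. Of the 265 strongest reproducible lncRNA regions, 83.2% of those with a strand were at the start (178 of 214), against 72.5% of the 265 weakest (150 of 207). Summits at starts also lay closer to the annotated end, at a median of 239 bp with 51.9% within 250 bp, against a median of 545 bp with 15.4% within 250 bp for the 188 regions at finishes.

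**Figure D3:**
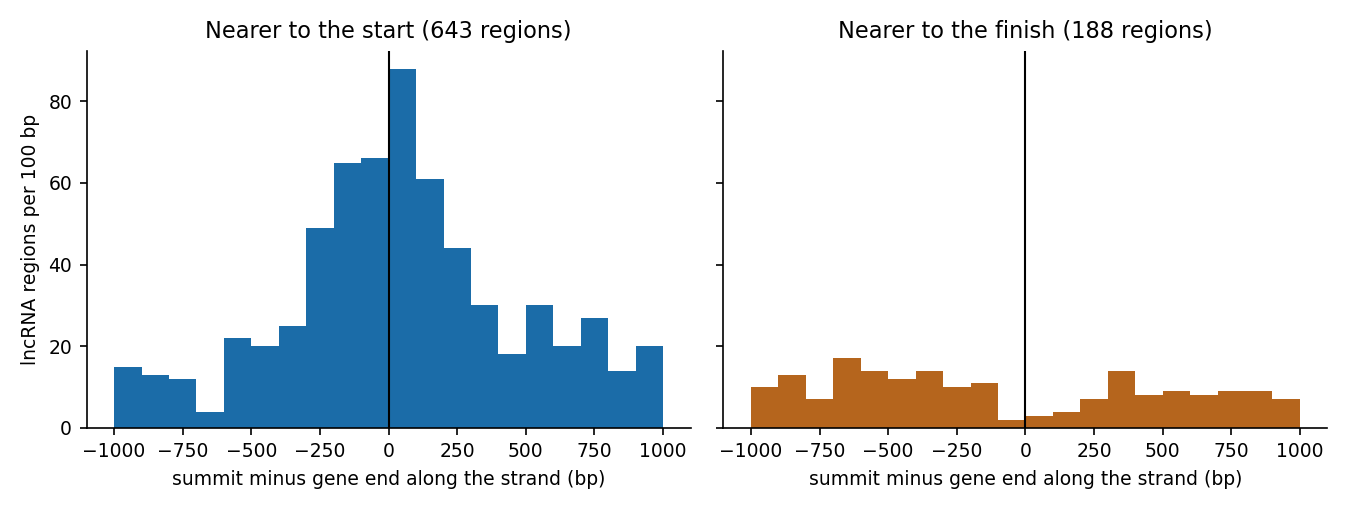
Number of lncRNA regions per 100 bp of distance between the summit and the nearer gene end, along the strand of the gene, for 643 regions nearer to the start (left) and 188 nearer to the finish (right); negative values lie upstream of the end. The regions at starts pile up around 0, with 51.9% within 250 bp, and those at finishes do not, with 15.4%.

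LncRNA starts under these regions were richer in CpG than other lncRNA starts. The 515 lncRNA promoters (of 462 genes) covered by such a region had a median GC content of 57.7% and a median ratio of observed to expected CpG of 0.515, and 42.7% had a ratio of at least 0.6. In the 422 of them with no listed coding start within 1 kb of the summit, 35.3% reached 0.6. Of the 10375 lncRNA promoters covered by no reproducible region 8.09% did, with a median GC content of 47.7%, while 81.5% of 8581 covered coding promoters did and 35.8% of all 32817 promoters in the table. The printed starts span this range, with a ratio of 0.121 in Gm51802 and 1.13 in Gm27011.

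Motif shares differed between covered and uncovered lncRNA promoters in both directions. The 11 motifs were searched on both strands, and matches of different motifs may overlap, as those of RUNX and BCL11A do in Mir22hg. TGACCA (BCL11A) was in 14.95% of covered lncRNA promoters, 15.9% of uncovered ones and 13.6% of all promoters. TGTGGT, of the RUNX factors of blood stem cells, was in 22.1% of covered, 20.5% of uncovered and 16.8% of all promoters. GGAAGT, of the ETS family, was in 31.3%, 21.3% and 23.8% in the same order. The GC-rich GGGCGG, of the SP and KLF families, was in 44.1%, 11.3% and 35.6%, and GCGCATG, for NRF1, was in 4.47%, 1.82% and 3.90%. TGACGT, the core of the cyclic AMP response element (CRE), was in 8.54%, 5.0024% and 7.51%. These last 4 were more frequent in covered than in uncovered lncRNA promoters. The AT-rich AGATAA, known for binding of factors such as Gata2, was in 6.02% of covered, 15.1% of uncovered and 11.2% of all promoters. The TATA box, taken as TATAAA, was in 9.13%, 16.6% and 13.6%. TGANTCA, for AP-1, was in 7.96%, 9.79% and 7.81%, CCAAT, for NF-Y, was in 30.5%, 36.3% and 37.4%, and AAGATGG, for YY1, was in 6.02%, 6.56% and 6.34%. A match is a run of letters, not a site of binding.

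The lncRNAs known for shaping the nucleus or gene dosage were looked at as a list, of which 7 of 23 genes held such a region, 1 held a region at a coding end and 15 held neither, beside 8.71% of all lncRNA genes away from coding ends. Malat1, a nuclear speckle RNA on chr19:5802400-5803872, had 9.35, 8.22 and 10.4 fold enrichment in libraries 1, 2 and 3. Neat1, the scaffold of paraspeckles, had 7.12, 7.69 and 8.52. Its 3 summit pileups of 116, 179 and 256 fragments were the highest of the list, and its region was 1900 bp wide. Jpx had 9.67, 8.66 and 9.93 at chrX:103493377-103493916, with the summit 69.0 bp from the start. Kcnq1ot1, which silences imprinted genes on the paternal chromosome, had 5.65, 8.26 and 7.59, and Oip5os1, also called Cyrano and known to lower miR-7, had 6.78, 9.41 and 7.47. Hotairm1, a HoxA cluster lncRNA of myeloid cells, was lower at 4.41, 5.67 and 5.47. Trp53cor1 (lincRNA-p21), a target of p53 next to Cdkn1a, held a region at each end, at 6.98, 6.53 and 4.86 and at 6.50, 6.89 and 5.69. Of the 15 genes with neither kind of region, 7 had a peak of 1 or 2 libraries. Xist, Tsix, Firre, Meg3 and Hotair held no peak of any library within 1 kb of an end.

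Among lncRNAs studied in blood, 6 of 17 genes held such a region, beside the same 8.71%. Lockd, which lies beside the cell cycle inhibitor gene Cdkn1b, had the highest values of the list, 12.5, 10.7 and 10.2 at chr6:134928310-134928897. Mir22hg had 9.51, 8.44 and 8.07, with pileups of 100, 127 and 144 fragments. Mirt1 held a region at its start with 7.58, 8.25 and 8.38 and one at its finish with 5.36, 4.54 and 4.47, so the start was the higher end in all 3 libraries. Morrbid, which restrains the death gene Bcl2l11 in myeloid cells, had 4.70, 4.77 and 6.88, and Dleu2, the host of miR-15a and miR-16-1, had 4.71, 4.73 and 4.42. Lincred1 had 3.26, 4.498 and 3.46 and its summit lay 921 bp from the end. Of the 10 genes of this list with no reproducible region, 4 had a peak of 1 or 2 libraries. Mir17hg and Mir155hg held no peak of any library.

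Hosts of small nucleolar RNAs (snoRNAs), which guide the chemical modification of rRNA and are cut from introns, held a region in 11 of 20 genes, with 3 more at coding ends, also beside 8.71% of lncRNA genes. Snhg17 had 9.11, 10.2 and 12.6 fold enrichment, the highest mean among them, and Epb41l4aos had 9.27, 8.79 and 7.21. Snhg15 had 7.58, 7.89 and 6.91 with its mean summit 2 bp from the start. Snhg7 had 4.02, 4.15 and 4.60 with its mean summit 4 bp from the start, and Snhg8 had 9.69, 7.22 and 6.36. The summits of the 3 libraries lay up to 122 bp apart at Snhg15 and 329 bp at Snhg7. Snhg3, Snhg5, Snhg9, Snhg16 and Snhg20 had means between 6.69 and 7.09, and Snhg10 the lowest with 3.92, 2.88 and 3.28. Of the 6 host genes with neither kind of region, 5 had a peak of 1 or 2 libraries. At Snhg9 a coding start lay 140 bp from the summit, and such a start within a gene counted as no coding end under the rule.

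Listed internal coding starts were near a minority of the regions. The promoter table leaves out chromosome 18, with 29 of the regions, and some genes elsewhere, so the shares are lower bounds. At Mir1907 the nearest coding end, of Trps1, lay 1934 bp away and the nearest listed coding start 6376464 bp away. Of 1389 regions on the chromosomes of the promoter table, 144 (10.4%) had the summit within 1 kb of a listed coding start inside a gene, as did 976 of 12645 regions at neither kind of end (7.72%). Of the lncRNA regions 127 of 1038 (12.2%) did, among them Gm46771 with 15.99, 14.9 and 15.2 fold enrichment and A430108G06Rik with 15.3, 14.9 and 14.1. Inside a coding gene lay 497 of the noncoding-end regions (35.0%), against 65.3% of coding-end regions and 59.2% of the regions at neither. The nearest coding end was 1 to 2 kb away for 145 regions, 2 to 5 kb for 211, 5 to 10 kb for 253, 10 to 50 kb for 555, 50 to 100 kb for 124 and over 100 kb for 130. Median fold enrichment was lowest in the nearest of these bins, 5.60, 5.67 and 5.35, against 6.29, 6.14 and 6.13 in the farthest.

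The strongest lncRNA region was at Gm46796, whose function is not known here, with 46.7, 41.8 and 36.0 fold enrichment at chr3:6116050-6116326. Close behind came the microRNA gene Mir6236 with 37.7, 34.1 and 32.2 and the pseudogene Gm19193 with 33.5, 34.0 and 25.1. These 3 regions were narrow, 277, 237 and 285 bp, and their 3 summits lay within 26, 19 and 4 bp of each other. Among the next were lncRNA genes at 20.3, 19.1 and 17.3 (Gm8273), 19.4, 17.9 and 17.7 (Gm40237), 15.6, 18.4 and 18.005 (Gm13483), 19.1, 12.6 and 19.1 (Gm51802), 18.6, 11.3 and 19.1 (Gm52339) and 16.6, 14.4 and 17.1 (Gm27011). Gm30782 had 15.2, 15.4 and 13.8. All of these but Gm52339 exceeded the median of the noncoding-end regions by more than 2 times in every library, and Gm52339 did so in libraries 1 and 3.

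MicroRNA genes held some of the strongest and some of the weakest regions. The 42 regions nearest to them had median fold enrichments of 5.04, 5.21 and 5.23, and 71.4% lay inside a coding gene. Mir210, induced by low oxygen, had 11.05, 9.90 and 7.29 at chr7:141221449-141222344. Mirlet7i, of the let-7 family that restrains growth, had 5.93, 7.54 and 5.26. The region over Mir212 and Mir132 had 5.50, 5.94 and 5.37, and that over Mir33, which lies in an intron of the sterol regulator gene Srebf2 and limits cholesterol export, had 4.23, 4.61 and 4.87. The region beside the cluster of Mir23a, Mir27a and Mir24-2, microRNAs of myeloid cells, had 3.62, 3.08 and 2.89 at chr8:84207868-84208261. That is the lowest mean fold of the class, while its pileups of 79, 98 and 113 fragments were above the class medians of 23, 30.5 and 46 fragments.

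Of 59 microRNA genes known from blood, 6 held a region at a noncoding end only, 3 held one at a coding end and 50 held neither. Their share of 10.2% stands beside 4.64% of all microRNA genes away from coding ends. The 6 genes come from 3 regions, those of Mir23a, Mir212 and Mir33. Of the 50 genes with neither kind of region, 2 had a peak of 1 or 2 libraries. No peak of any library lay at Mir142, Mir223 or Mir155, which are known for roles in leukocytes. Mature microRNAs are cut from long precursors whose start can lie far away, so a gene end here is the end of the hairpin and not of the transcript. Other strong regions were at Mir7655 with 14.7, 16.6 and 12.5, Mir7671, near the interferon regulator gene Irf1, with 14.03, 12.9 and 11.1, Mir5620 with 10.4, 10.8 and 8.50, and Mir5099 with 10.1, 8.31 and 12.6. Mir1907, Mir6541, Mir8096, Mir7229, Mir7653, Mir101c, Mir1956, Mir199b, Mir1893 and Mir7240 followed with mean folds of 9.67 down to 6.13. Mir101c had 305, 325 and 481 fragments, far above the class medians of 23, 30.5 and 46, at 6.43, 6.66 and 7.01 fold. Its local background was thus high as well. Whether reads of similar sequences elsewhere were placed at Mir101c was not tested. A listed coding start lay 175 bp from the summit at Mir5620, 190 bp at Mir7653 and 24.3 bp at Mir1956.

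Genes of named small nuclear RNAs were covered more often than the many other snRNA genes of the table. Of 16 genes named Rnu or Rn7sk, 11 held a region at a noncoding end only and 2 held one at a coding end, against 30 of the 988 others (3.04%). All 5 genes of U3, an RNA of rRNA processing in the nucleolus that the table classes as snRNA, held a region. Rnu3b2 had 17.2, 15.2 and 15.4 fold enrichment, Rnu3b4 had 13.9, 13.2 and 14.98, Rnu3b1 had 12.6, 12.6 and 11.3, Rnu3b3 had 11.9, 9.60 and 9.62, and Rnu3a had 9.30, 10.3 and 8.22. The 4 Rnu3b genes lie together on chromosome 11, and their regions were 1196 to 1291 bp wide and up to 215 fragments high. Reads of such near-identical copies may be split between them or placed at random, and their handling was not stated in what could be used here.

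Spliceosomal RNAs had lower values than U3. Rnu2-10, for U2, which pairs with the branch point, had 8.47, 9.29 and 7.39. Rnu1a1 and Rnu1b6, for U1, which pairs with the start of the intron, had 5.81, 5.11 and 6.07 and 5.27, 4.23 and 4.35. Rnu11, of the minor spliceosome, had 5.05, 5.15 and 6.95 and Rnu5g, for U5, had 4.41, 4.22 and 3.56. Each Rnu3b gene was above these 5 genes in every library, but narrowly in library 2, at 9.60 for Rnu3b3 against 9.29 for Rnu2-10. The Rnu3b copies may share reads, so they are not separate observations. In the list of snRNA genes 10 of 14 held a region, beside 4.12% of all snRNA genes away from coding ends. Of these 10, 5 are the U3 genes.

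A list of RNA polymerase III genes left out tRNAs, and Rn5s stood for 5S rRNA in it. Of its 11 genes, 4 held a region at noncoding ends only and 4 more held one at coding ends. Of all noncoding genes away from coding ends, 5.32% held a region at noncoding ends only. Rn7s2, a gene of 7SL, the RNA of the signal recognition particle, had 13.1, 10.9 and 12.1 at chr12:69360891-69361923. Rn7sk, which holds back the elongation kinase P-TEFb, had 7.82, 8.79 and 8.42, at a summit that lay nearer to the lncRNA gene C920006O11Rik beside it. Rny1, for a Y RNA bound by the Ro protein, had 7.51, 8.14 and 8.72, and Vaultrc5, for the RNA of the vault particle, had 5.24, 5.67 and 5.02. Rny3, Rnu6 and Rn5s had no peak of any library, while 21 of 48 genes of 5S rRNA in the chromosome 8 array held a region.

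**Figure D4:**
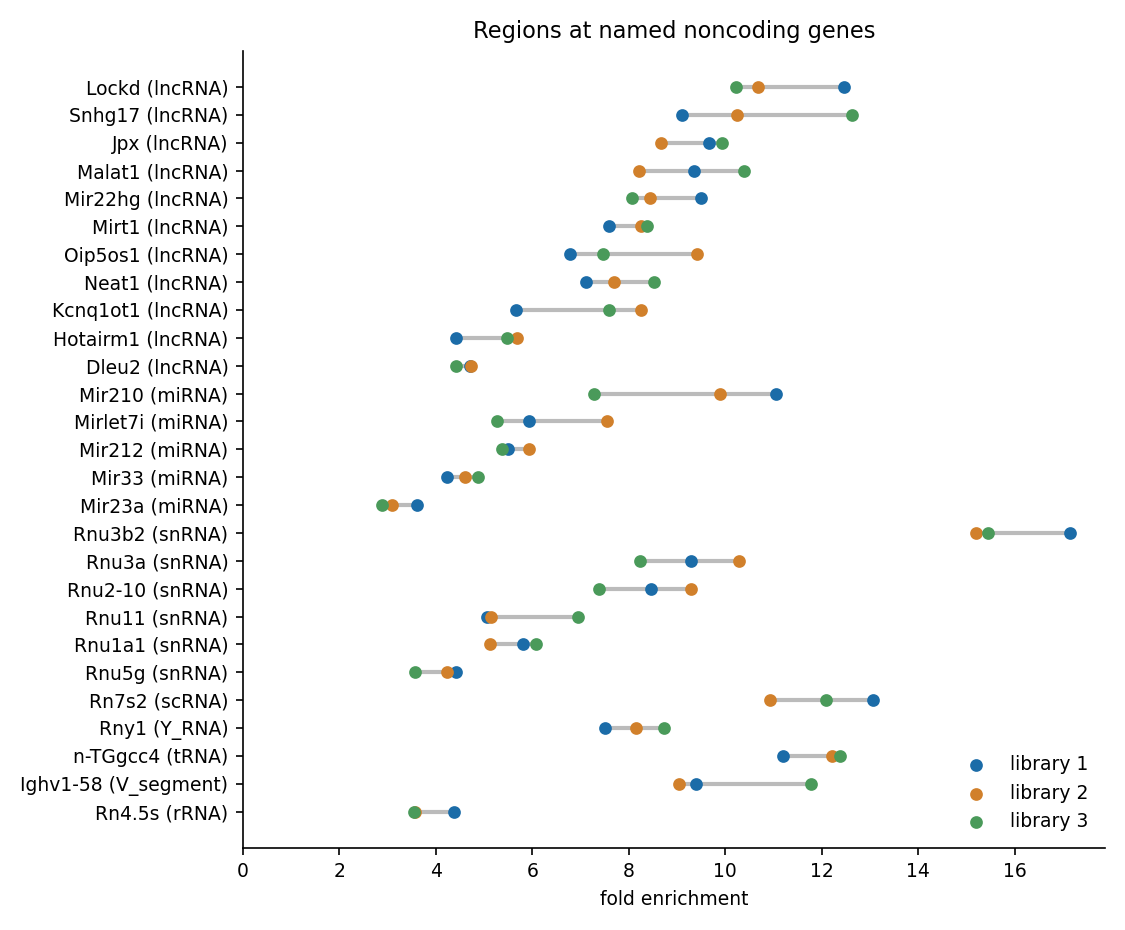
Fold enrichment (linear axis) in libraries 1, 2 and 3 (colours) of the regions at 27 named noncoding genes, with the class of each gene in parentheses and a grey bar over the range of the libraries; Mirt1 is shown by the region at its start and Rn4.5s by its stronger region. Rnu3b2 lies highest at 15.2 to 17.2, and Mir23a lowest at 2.89 to 3.62.

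Of the 402 tRNA genes whose symbol gives the amino acid, 89 (22.1%) held a region and 35 more lay at a coding-end region. The shares were 45.5% for histidine (5 of 11), 43.8% for proline (7 of 16), 40.0% for glutamate (8 of 20), 40.0% for tyrosine (4 of 10), 39.3% for glycine (11 of 28) and 37.5% for aspartate (6 of 16). They were 3.57% for cysteine (2 of 56), 9.09% for serine (2 of 22), 11.5% for lysine (3 of 26) and 12.1% for alanine (4 of 33). The 89 genes had 60 regions within 1 kb, and the 5 histidine genes had 4, so these genes are not independent of each other. Placement of reads among similar tRNA copies was not tested. The 50 regions whose nearest noncoding gene was a tRNA gene were of ordinary strength, with medians of 5.32, 5.77 and 5.51. Their summits lay a median of 177 bp from the gene. The strongest were at n-TGgcc4 with 11.2, 12.2 and 12.4, n-TSgct5 with 11.1, 11.2 and 9.55 and n-TGgcc7 with 13.5, 7.96 and 9.44. The region at Mir6546 and 3 tRNA genes, for glycine, glutamate and aspartate, was 2383 bp wide, among the 3 widest with Gm10925 and the 2623 bp region at the lncRNA gene Gm51701.

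Regions at rRNA genes were high in fragments and low in fold. Of the 48 genes of 5S rRNA, a part of the large ribosomal subunit, in the array on chromosome 8, 21 held a region. Their median fold enrichments were 2.48, 2.63 and 2.24, while their median pileups were 38, 55 and 74 fragments, above the 20, 26 and 31 of all noncoding-end regions. The local background of the 22 rRNA regions was a median 14.02, 14.6 and 16.9 times the background of the library, against 2.17, 2.27 and 2.29 times over all noncoding-end regions. The highest mean in the array, 3.52, was at Rn5s-ps1, a 5S pseudogene next to n-R5s136, with 4.05, 3.18 and 3.32. Of regions nearest to a 5S gene itself, n-R5s100 was the highest with 2.85, 3.67 and 3.09, and n-R5s134 was among the 3 lowest regions of all with 2.08, 2.19 and 1.73. The regions at Rn4.5s, a rodent small RNA classed as rRNA, had 4.37, 3.56 and 3.55 and 3.72, 4.15 and 3.18. AY036118, an lncRNA gene at the 18S rRNA-related gene Rn18s-rs5, had 986, 1615 and 1819 fragments, the highest pileups of all, and 1.98, 2.07 and 1.96 fold. Whether reads of repeated rRNA genes elsewhere were placed here was not tested.

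**Figure D5:**
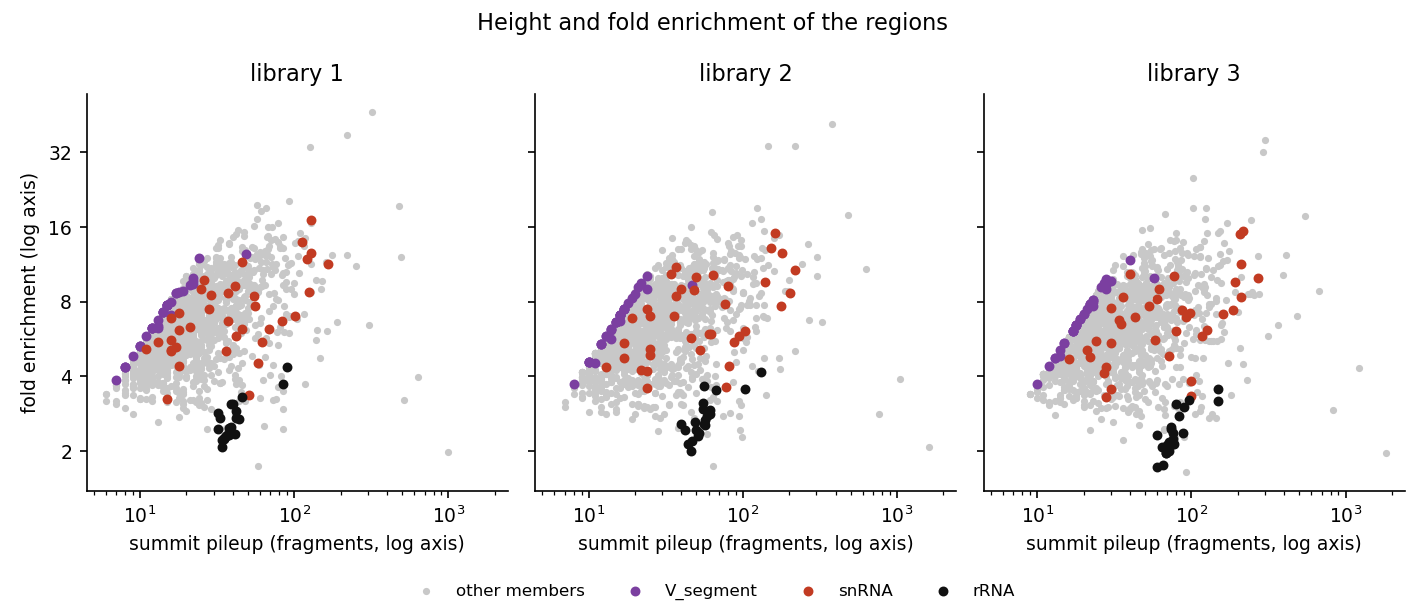
Fold enrichment against summit pileup (fragments), both on log axes, for the 1418 regions in each library, with V segments, snRNA and rRNA genes coloured. In all 3 libraries rRNA genes lie at the lower edge, at a median of 2.28 to 2.65 fold. Most V segments (25, 29 and 28 of 37 in libraries 1, 2 and 3) lie along the upper left edge, where the local background is within 1% of the library's.

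Regions at V segments were the opposite, low in fragments, at medians of 14, 15 and 20. Their median folds of 7.25, 6.65 and 7.13 were above the 6.12, 6.08 and 5.82 of all noncoding-end regions. Of 120 heavy chain V segment genes of the Igh locus, 33 (27.5%) held a region, against 0 of 102 for the kappa chain, 3 of 114 for the T cell receptor alpha chain and 1 of 22 for the beta chain, where it lay at Trbv1 with 12.5, 9.35 and 9.997. Within Igh, 28 of 60 genes of the Ighv1 family held one, as did 3 of 10 of Ighv8, 1 of 4 of Ighv14 and 1 of 1 of Ighv15, while 0 of the 45 genes of all other families did. With 2 pseudogenes of the Ighv8 family, these were 35 regions at chr12:113994468-116000482. The pseudogenes Ighv8-10 and Ighv8-7 had 6.77, 6.03 and 8.49 and 3.87, 4.57 and 4.75, and the D segment Ighd4-1 had 4.04, 2.83 and 3.95. The strongest were Ighv1-58 with 9.39, 9.04 and 11.8 and Ighv1-75 with 8.71, 9.14 and 9.03. Genes of the Ighv1 family are near-identical in part, and the share of reads placed at the wrong copy was not tested.

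The Igh regions shared a position. In 33 of 35 the summit was nearer to the lower-coordinate end of the segment, at a median of 50 bp and at most 133 bp from the end. Mouse heavy chain V segments lie on the minus strand, so this is their 3′ side. The recombination signal lies just beyond that end, while the summit lay beyond the nearer end in 5 of the 35 regions and within the segment in the others. Median fold enrichments of the 28 Ighv1 genes were 7.25, 7.06 and 7.13, above the 6.12, 6.08 and 5.82 of all noncoding-end regions, and median pileups were 14.5, 16 and 20 fragments, below 20, 26 and 31. The local background was within 1% of the library's own in 24, 27 and 27 of the 35 regions, a state found in 9.52%, 9.31% and 10.7% of all noncoding-end regions.

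At snoRNA genes lay 17 regions with median fold enrichments of 5.76, 4.70 and 5.28. Of 206 snoRNA genes within Snhg14, the long host transcript of the imprinted Prader-Willi and Angelman region on chromosome 7, 8 held a region (3.88%), as did 22 of the 1134 elsewhere (1.94%). The strongest of the class, LOC115487266 on chromosome 9, had 10.1, 9.32 and 8.42. The strongest in the imprinted array was Gm25350 with 6.80, 7.71 and 9.37, followed by Gm25157 with 6.18, 5.24 and 6.42. The share of reads placed at the wrong copy within this array was not tested. Of the guide RNAs of Cajal bodies, Scarna2 had 6.94, 9.11 and 5.28 and Scarna13, within the same region as Snhg10, had 3.92, 2.88 and 3.28, while the guide RNA gene Gm26347 had 4.01, 4.09 and 4.84. The strongest regions at misc_RNA genes were at 4930451G09Rik with 12.1, 11.9 and 10.9, Gm4633 with 11.2, 10.9 and 12.9 and Gm9919 with 6.65, 9.72 and 10.6, and the first 2 lay 38.3 and 212 bp from a listed coding start.

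Pseudogenes were seldom covered, at 1.07% of 9669, yet the regions there were as strong as others, with medians of 6.30, 6.15 and 6.09 over 98 regions. Behind Gm19193 came Gm6216 with 19.7, 16.1 and 15.8 and Gm10060 with 14.5, 17.3 and 16.6. Transcribed pseudogenes had medians of 6.05, 6.64 and 5.79 over 36 regions, led by Bambi-ps1, a copy of the TGF-beta antagonist gene Bambi, with 17.3, 12.9 and 11.02, Zfp389 with 10.2, 10.95 and 15.6 and Gm6787 with 10.2, 12.4 and 12.2. The widest region of all was at the pseudogene Gm10925, 2918 bp at chr1:24613224-24616141. It had 634, 1051 and 1214 fragments and 3.96, 3.89 and 4.31 fold. Its 3 summits lay up to 2266 bp apart. The mean summit that placed this region at Gm10925 thus stands for no shared position. Whether reads of similar sequences elsewhere were placed there was not tested.

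The regions nearest to the 1 kb limits varied in strength on both sides. Just inside it from a noncoding end were Gm33862 at 996 bp with 1.74, 1.74 and 1.64 fold, the lowest region of all, Gm30055 with 8.07, 6.44 and 6.49 and Gm15742 with 6.38, 5.36 and 5.03. Just outside were Gm39023 at 1003 bp with 5.78, 7.73 and 7.76, Gm11843 with 8.95, 9.84 and 11.3 and 9030619P08Rik with 6.47, 5.93 and 6.02. From the coding side, the nearest regions kept were at Gm32957 and Gm39302, both 1008 bp from a coding end, with means of 4.07 and 5.08, and A630034I12Rik with a mean of 11.3. Those left out by the closest margin were at Gm38599, Gm16630 and Gm33408, with means of 5.36, 5.18 and 5.55.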

How the data were processed

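Each library was deposited as a list of narrow peaks. Per the submitters' processing notes, which name Bowtie2, SAMtools, MACS2 and mm10 without versions or settings, reads were aligned and peaks called in each library. The deposited columns used were the fold enrichment (a ratio), the −log10 p-value and −log10 q-value and the summit position; the deposited score repeats the −log10 q-value and was not used further. How duplicate reads and reads with several matches were handled was not stated in what could be used here.

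Regions were built as the opening describes, with gene ends from the RefSeq annotation of GRCm38.p6. The summit pileup was solved from the deposited fold and p-value and came out whole within 0.05 fragments for 100% of peaks. Differences between classes were taken between medians within each library and tested over the 3 libraries by an exact two-sided sign-flip test. Shares carry 95% Wilson intervals, which cover counting error only. The members and lists were chosen with earlier results of these data known. Named were the 10 strongest lncRNA regions and the 3 strongest of each other class, the 3 lowest, the 3 widest, those nearest to the 1 kb limits, those at genes of the 6 lists and up to 20 with a microRNA end; others are named as examples chosen after their values were seen. Python 3.11.15, NumPy 2.4.6, pandas 2.3.3 and SciPy 1.17.1 were used, and the building and classing of regions was tested on simulated peaks. Alternatives changed the window, the overlap, the peaks used, the libraries required, the summit and the pseudogenes.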

Additional observations from a re-analysis of the deposited data

How the results depend on the processing

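The number of regions at noncoding ends only, 1418, was 772 with a window of 250 bp, 2223 with 3 kb, 422 with the 10000 peaks of each library of highest −log10 q and 944 with 50% reciprocal overlap; leaving out a library gave 1553 to 1719. Their share of 6.17% was 3.36%, 9.67% and 5.86% under the first 3 of these and 5.59% without pseudogenes (6.13% to 6.30% leaving out a library). The lncRNA share of 74.9% was 70.2% with 250 bp, 77.5% with the 10000 highest peaks and 82.7% without pseudogenes (73.7% to 74.8% leaving out a library). Of noncoding genes away from coding ends, 737 held a region with 250 bp and 439 with the 10000 highest peaks, against 1349 (1455 to 1626 leaving out a library). The log2 difference in fold enrichment from regions at neither kind of end, 0.06, was -0.0112 with the 10000 highest peaks (exact permutation p = 0.5), and the cause was not tested. It was 0.00982 with 3 kb (p = 0.5, exact permutation; below 0 in 1 of 3 libraries), 0.04 with peaks of −log10 q of at least 5, 0.17 with 250 bp, 0.16 for pileup over library background and 0.04 to 0.08 leaving out a library. The difference from coding ends, -0.26, was -0.31 to -0.15 under all 13 alternatives, nearest to 0 with the 10000 highest peaks. That in width, -129.5 bp, was -153.8 to -43 bp under all 12, with -59.2 bp at 250 bp and -43 bp with the 10000 highest peaks. The width difference from regions at neither, 33.2 bp, was 84.8 bp with 250 bp and 54.3 bp with the 10000 highest peaks. The lncRNA share at the start, 77.4%, examined under alternatives chosen after seeing the data, was 92.7% with 250 bp, 64.6% with 3 kb and 82.1% with the 10000 highest peaks. Leaving out regions near listed internal coding starts, also chosen after seeing the data, gave 75.2%. No paired analysis was possible because the libraries form 1 group, so that no replicate numbers pair samples across groups; the class differences were taken within each library throughout. With 3 libraries the smallest exact permutation p is 0.25 and with 2 it is 0.5, and low pileups limit the precision of single regions.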
